A study of Mus musculus with 3 samples.

Results

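The genes described here are the insulator protein genes Ctcf and Ctcfl and the core cohesin genes Smc1a, Smc3, Rad21, Stag1, Stag2, Nipbl, Pds5a and Pds5b. They were chosen by name and make up 10 of the 22359 protein-coding genes of the GENCODE annotation on mm9. For each gene a CTCFL peak was recorded when its center lay at -2 kb to +1 kb of a transcription start site (TSS), called the promoter interval, in the gene body, or up to 40 kb from a TSS. In all, 19 of the 7436 peaks of the deposited CTCFL list were recorded, and 7 of the 10 genes had at least 1. The study reports fewer CTCFL sites than this list holds, and the sources used here do not say why. Whether each of the 19 is among the reported sites is therefore unknown.

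The binding of CTCFL was measured by ChIP-sequencing in mouse embryonic stem (ES) cells. The cells were a ROSA26-rtTA line carrying a Tet-on construct, TRE-mCTCFL-V5-GFP-neomycin, from G418-selected clones. The construct encodes mouse CTCFL fused to V5 and GFP, and the sources used here do not state whether it holds introns of Ctcfl. In the group ES_CTCFL_V5_DOX the construct was induced with doxycycline for 3 days, GFP-positive cells were sorted, and chromatin was precipitated with the V5 antibody. The group ES_CTCFL_V5_NODOX consisted of cells of the same line that were neither induced nor sorted, and the same antibody was used. The study used these non-induced cells as control for the CTCFL ChIP. The peak list may therefore not rest on the induced library alone. The group ES_CTCF was precipitated with a CTCF antibody. Its cells were normal ES cells by the study's own description, while its labels carry the growth text of the transgenic line. Each group was 1 library, and positions were analysed here for the induced library, as a list of peak starts and ends without heights, read numbers or p-values. No spread between replicates can therefore be given, no difference was tested, and the depth behind a peak is unknown. No expression values were used, so the ES cell identity could not be checked against marker genes.

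CTCF is a zinc finger protein that binds DNA at insulators and at the boundaries and anchors of chromatin loops. CTCFL, also called BORIS, is its germ cell paralog, with a similar zinc finger region and different ends, and it is normally made in the testis. Cohesin is a ring of SMC1A, SMC3 and RAD21, to which STAG1 or STAG2 is bound. NIPBL loads the ring onto chromatin, PDS5A and PDS5B regulate its release and its stable hold, and CTCF stops the sliding ring at its sites.

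Among the 10 genes, 6 had a CTCFL peak in the promoter interval of -2 kb to +1 kb, namely Ctcf, Ctcfl, Smc3, Stag1, Stag2 and Pds5b. Of all protein-coding genes, 11.2% had such a peak (2512 genes, 95% Wilson interval 10.8 to 11.7%, which covers counting error only). A peak in the gene body was found in 3 of the 10 genes (Ctcf, Ctcfl and Stag1) and in 15.0% of all genes. A peak within 40 kb of a TSS was found for 7 of the 10 genes, with Pds5a as the additional gene, and for 41.7% of all genes. Smc1a, Rad21 and Nipbl had none. The nearest peak lay at a median distance of 0.317 kb from a TSS over the 10 genes and at 60.9 kb over all genes. At 13 of the 19 recorded peaks the nearest coding TSS was that of the member gene, and at the other 6 it belonged to a neighboring gene.

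**Figure D1:**
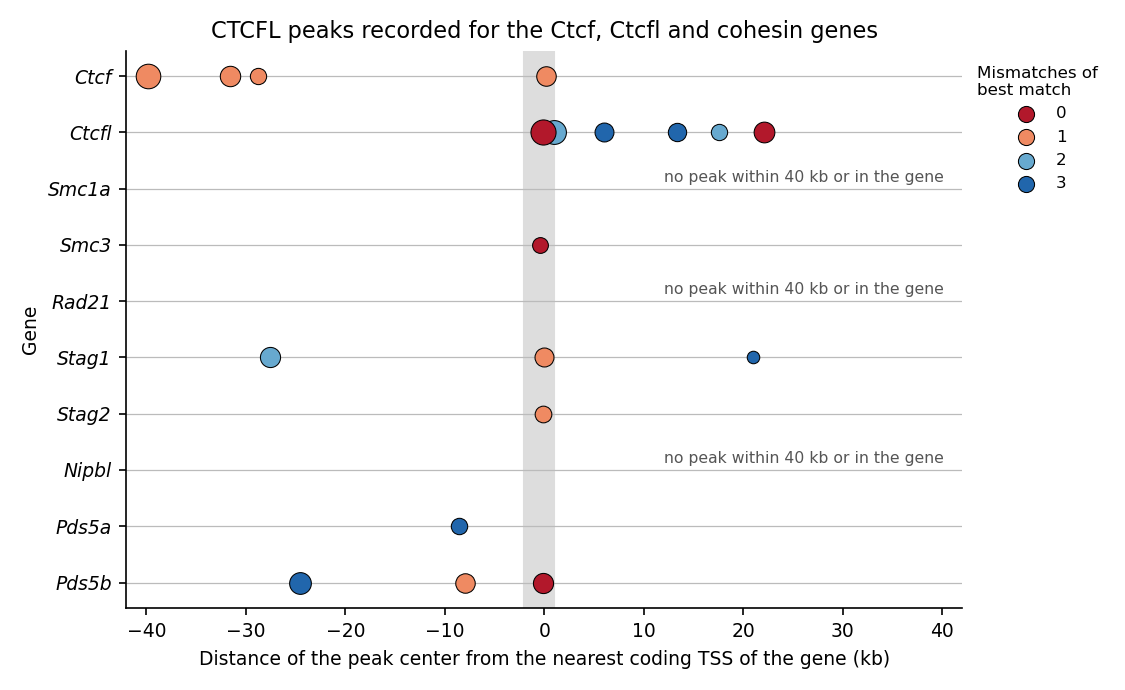
Each point is a CTCFL peak of the induced cells, placed by the distance of its center from the nearest coding TSS of the gene (kb, negative upstream). Point area follows the peak width (216 to 873 bp), color gives the mismatches of its best consensus match (0 to 3), and gray marks -2 kb to +1 kb. In 6 of the 10 genes a peak lies in the gray interval, and Smc1a, Rad21 and Nipbl have no point.

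The base sequence under the 6 promoter peaks is shown first, since it carries the match to the CTCFL consensus. The consensus was written as CCNNNAGGNGGCGC, and its positions were numbered from 1, beginning at the 5' end. Of its 14 positions 10 are fixed, and N stands for any base. The study describes C at positions 1 and 2, and A at position 6, as less prevalent in the CTCFL motif than in that of CTCF. Whether its positions are numbered as here cannot be told from its text. Each peak was searched on both strands and the match with the fewest mismatches at fixed positions was taken. In the following mm9 sequences, written 5' to 3' on the strand of the match, capitals mark the match. Flanks were shortened where they ran into an untranslated exon.
Ctcfl, chr2:172944972-172945001, plus strand: tcccaggaCCCCAAGGGGGCGCtggagtcc
Smc3, chr19:53674369-53674442, plus strand: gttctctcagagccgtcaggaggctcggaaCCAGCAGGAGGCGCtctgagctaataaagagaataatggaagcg
Pds5b, chr5:151476238-151476311, plus strand: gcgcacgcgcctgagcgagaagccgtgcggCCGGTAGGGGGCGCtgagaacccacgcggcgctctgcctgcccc
Ctcf, chr8:108160623-108160696, minus strand: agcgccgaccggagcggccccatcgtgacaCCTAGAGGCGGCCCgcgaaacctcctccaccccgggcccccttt
Stag1, chr9:100543867-100543896, minus strand: atcgctcgCCTCCGGGGGGCGCgcacgcgc
Stag2, chrX:39502216-39502289, plus strand: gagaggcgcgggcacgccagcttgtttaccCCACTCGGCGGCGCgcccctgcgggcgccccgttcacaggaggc
The matches at Ctcfl, Smc3 and Pds5b had no mismatch. The others had 1 mismatch each, which was G13C at Ctcf, A6G at Stag1 and A6C at Stag2, with the base of the consensus written first. All 6 promoter peaks of these genes thus held a match at up to 1 mismatch, compared with 53.6% of the 2344 promoter peaks of all genes and 43.9% of all peaks. Stretches of the same length placed 2 kb to either side of every peak, and free of peaks, held one in 2.08% of 14789. Not all of the 6 matches lay near the peak center. In the central 200 bp of the peak alone, the best match had 2 mismatches at Pds5b and at Stag2, and up to 1 at the other genes. The consensus describes peaks of these same data, so the matches are no independent evidence of binding.

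Of the insulator protein genes, Ctcf (chr8:108160468-108206822, plus strand) had a promoter peak on chromosome 8 from 108160400 to 108160926. Its center lay 184 bp downstream of the TSS, in an intron of the gene. The peak was 527 bp wide, which ranked 2459 of 7436, and its GC content was 75.9%, against a median of 52.6% over all peaks. It held 3 matches at up to 1 mismatch, and the best lay 4 bp from its center. A second group of 3 peaks was found upstream of Ctcf, at -28793, -31587 and -39871 bp from its TSS. These lay at the neighboring gene Fam65a, at 2557, -237 and -8521 bp from a TSS of that gene, so the middle one is a promoter peak of Fam65a. The outermost of them was 835 bp wide and ranked 252. Each of the 3 held a match with 1 mismatch (C14G, G7A and C12A, in the order given). The innermost was the less mappable one, with 86.7% of its 36-base windows unique in the genome, while all windows of the other 3 Ctcf peaks were unique. At least 4 peaks within 40 kb, as at Ctcf, were found for 1.65% of all genes. The outermost lay just inside this limit, and at least 3 peaks were found for 5.16%.

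Ctcfl (chr2:172919110-172945026, minus strand) had 6 peaks, the highest number among the 10 genes, and all were nearer to its TSS than to that of any other coding gene. Of the 22359 genes 31 (0.139%) had 6 or more peaks within 40 kb of a TSS. The peak at the promoter spanned positions 172944714 to 172945586 of chromosome 2, with its center 124 bp upstream of the TSS. It was the widest of the 19 peaks, with 873 bp, and ranked 207 of 7436. It held 4 matches at up to 1 mismatch. The exact match shown above lay within the non-coding first exon, 164 bp from the center of the peak. The next peak, from 172943623 to 172944407, was 785 bp wide and ranked 359. Its center lay 1011 bp downstream of the TSS, and so just outside the promoter interval, which ends at 1 kb. The remaining centers were found at 5954, 13360, 17543 and 22055 bp downstream.

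Of the 6 Ctcfl peaks 5 each held a whole exon of the gene, and the one farthest downstream lay in an intron. Of the 11 annotated exons 5 lay whole within a peak, and the other 6 were not touched by one. The exons held by peaks were the non-coding exon 1 and the coding exons 2, 4, 8 and 9. The peak over exon 2 left 139 and 107 bp on either side of the 539 bp exon. For exon 4 (171 bp) the margins were 219 and 105 bp, for exon 8 (161 bp) 98 and 205 bp, and for exon 9 (183 bp) 83 and 101 bp. The centers of these 4 peaks lay 16, 57, 53 and 9 bp from the centers of exons 2, 4, 8 and 9, respectively. The promoter peak was not centered on exon 1 (237 bp), with centers 242 bp apart and margins of 76 and 560 bp. Together the 4 coding exons hold 1043 of the 1908 coding bases of Ctcfl, or 54.7%. The wholly coding exons without a peak were 3, 5, 6, 7 and 10. They were 121 to 226 bp long, so exon 3, with 226 bp, was longer than 3 of the held coding exons and had no peak.

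**Figure D2:**
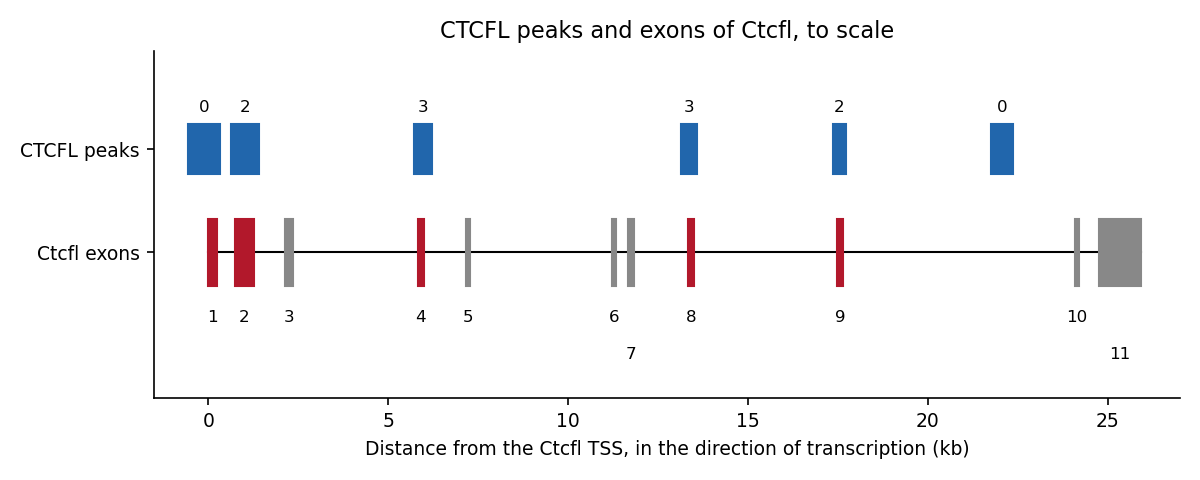
The lower row shows the 11 exons of Ctcfl and the upper row its 6 CTCFL peaks, to scale, by distance from the TSS in the direction of transcription (kb). Exons in red (1, 2, 4, 8 and 9) lie whole within a peak, gray exons are not touched by one, and the number above a peak gives the mismatches of its best consensus match.

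Exons 4, 8 and 9 are shown with 30 bases of intron on either side, as examples of coding exons held by a peak. Exon 2 is longer and is not shown. Capitals mark the coding exon, on the strand of the gene.
Ctcfl exon 4, chr2:172939014-172939244, minus strand: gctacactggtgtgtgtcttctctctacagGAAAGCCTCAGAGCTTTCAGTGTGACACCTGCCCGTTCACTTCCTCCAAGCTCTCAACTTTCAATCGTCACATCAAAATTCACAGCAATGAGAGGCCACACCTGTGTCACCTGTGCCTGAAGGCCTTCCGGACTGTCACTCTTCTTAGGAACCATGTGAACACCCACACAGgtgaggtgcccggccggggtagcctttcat
Ctcfl exon 8, chr2:172931503-172931723, minus strand: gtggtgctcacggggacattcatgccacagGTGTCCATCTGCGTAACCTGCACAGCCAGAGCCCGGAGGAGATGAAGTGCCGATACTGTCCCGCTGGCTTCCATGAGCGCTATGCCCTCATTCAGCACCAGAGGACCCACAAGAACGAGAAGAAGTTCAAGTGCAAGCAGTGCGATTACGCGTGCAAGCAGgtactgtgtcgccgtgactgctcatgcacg
Ctcfl exon 9, chr2:172927353-172927595, minus strand: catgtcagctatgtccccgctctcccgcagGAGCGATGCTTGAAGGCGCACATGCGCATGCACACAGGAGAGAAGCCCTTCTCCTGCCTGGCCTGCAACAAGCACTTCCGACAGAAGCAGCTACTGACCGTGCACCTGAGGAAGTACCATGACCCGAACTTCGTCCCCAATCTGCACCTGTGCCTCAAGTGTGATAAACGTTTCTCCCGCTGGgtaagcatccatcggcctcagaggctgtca
The best matches in the peaks over exons 4 and 8 had 3 mismatches (A6C, G11T and C12A for exon 4, and G11A, C12T and C14A for exon 8). In the peaks over exons 9 and 2 the best matches had 2 mismatches (A6G and G11A for exon 9, C12A and C14A for exon 2). None of the 4 peaks over coding exons held a match at up to 1 mismatch, whereas 11 of the other 15 recorded peaks did. Those 15 include the 6 promoter peaks. Over all peaks 43.9% held such a match, so a peak without one was common.

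The same count was made for all genes. Gene body peaks were left out when they lay in the promoter interval of the same gene, but kept when they lay in that of another gene. Of the peaks so counted, 15.0% (395 of 2633) held a whole coding exon of the gene. For Ctcfl this was found for 4 of 5. At least 1 coding exon lay whole within a peak in 937 genes. Coding exons were held by 2 or more separate peaks in 23 genes, and by 3 or more in 1 gene, which was Ctcfl. The coding share of the 4 Ctcfl peaks ranged from 34.5 to 67.3% of their bases, while the median over the 2633 gene body peaks was 0% and the upper quartile 9.15%. Ctcfl had 1.93 peaks per 10 kb of gene body. At least 5 peaks were found in 10 genes, and the shortest of these after Ctcfl was 144 kb long, compared with 25.9 kb for Ctcfl.

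**Figure D3:**
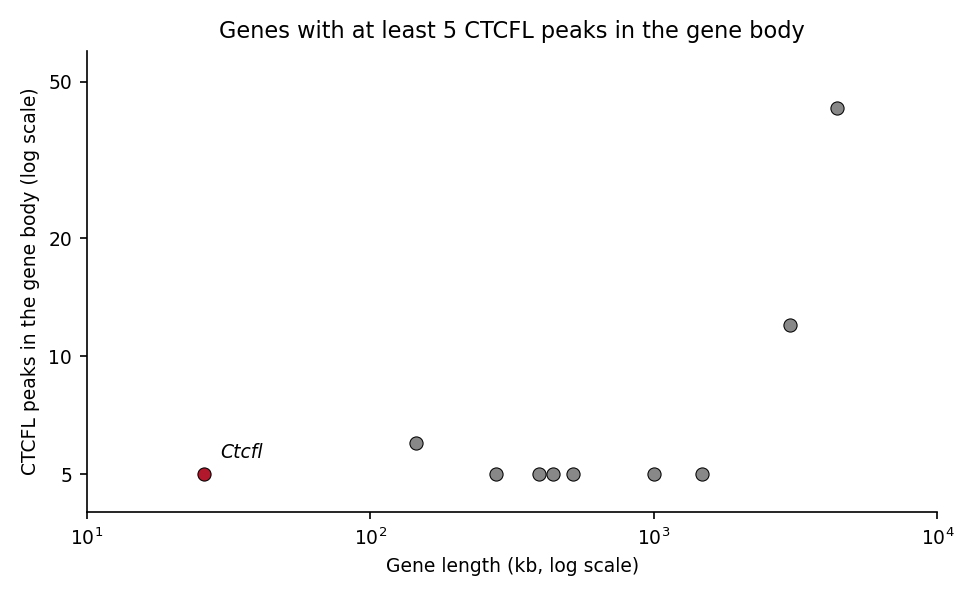
Each point is 1 of the 10 genes with at least 5 CTCFL peaks in the gene body, by gene length (kb, log scale) and number of peaks (log scale). Ctcfl, in red, has 5 peaks in 25.9 kb, and the other genes are 144 kb or longer.

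The induced cells carry the construct for CTCFL-V5-GFP, which has the coding sequence of Ctcfl, in addition to the gene itself. The non-induced cells, which the study used as control, carry both as well. Reads from the construct and reads from the coding exons of the gene cannot be told apart in a list of positions. The part of the construct in these peaks was not tested. All 36-base windows of the 4 peaks over coding exons, and of the promoter peak, occurred once in the mm9 genome. That genome does not hold the construct, so this search cannot tell the construct from the gene. The longest identical stretch in the coding sequences of Ctcf and Ctcfl was 12 bases. Reads were not examined here. Exon 1 is non-coding, and whether the construct holds it is not given in the sources used here.

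The sixth Ctcfl peak lay apart from the exons, in an intron, from 172922674 to 172923268 (595 bp, rank 1556). It was distinguished by its sequence. Its bases are shown on the minus strand, with every match at up to 1 mismatch in capitals.
Ctcfl intron, chr2:172922778-172923074, minus strand: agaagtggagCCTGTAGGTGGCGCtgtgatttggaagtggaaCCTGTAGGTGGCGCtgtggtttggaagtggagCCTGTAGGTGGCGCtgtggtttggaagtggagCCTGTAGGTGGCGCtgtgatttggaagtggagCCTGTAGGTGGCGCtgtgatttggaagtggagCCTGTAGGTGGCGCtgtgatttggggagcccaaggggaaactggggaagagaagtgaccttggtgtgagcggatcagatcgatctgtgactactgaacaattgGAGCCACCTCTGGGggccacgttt
The peak held 6 exact matches in a row on the minus strand, at regular steps of 32 bp over 174 bp, separated by 18 bases each. A seventh match, with 1 mismatch, lay on the plus strand. Of the 7436 peaks only this one held 6 or more exact matches, and 20 held 2 or more. Because of the repeated unit 82.0% of its 36-base windows were unique, which was the lowest share among the 19 peaks.

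Within 200 kb of Ctcfl, 11 other genes are annotated, of which 7 are protein-coding. None of the 7 had a CTCFL peak in its promoter interval, beside 11.2% of all protein-coding genes. For only 7 genes, none is close to that share. They comprise Bmp7 (a secreted growth factor), Spo11 (which makes the DNA breaks of meiotic recombination), Rae1 (mRNA export), Rbm38 (an RNA-binding protein), Pck1 (gluconeogenesis), Zbp1 (a nucleic acid sensor) and Pmepa1. The nearest peak to a TSS lay at 1478 bp for Bmp7, in the gene body and just outside the interval, and at -11111 bp for Zbp1. For Pmepa1 it lay at 29210 bp, and 2 peaks were found in its gene body. For Pck1 it was the promoter peak of Ctcfl, at -33399 bp. Spo11, Rae1 and Rbm38 had their nearest peaks at -40999, -61274 and 74639 bp. Of the 4 non-coding genes, 1300015D01Rik overlaps Ctcfl on the opposite strand and had 2 peaks in its promoter interval. The nearer had its center at -89 bp from a TSS that lies within the gene and not at its 5' end. The 2 peaks are those over exons 1 and 2 of Ctcfl, and a peak list has no strand, so they cannot be assigned to either gene. RP23-368M21.6, Gm14453 and Gm14454 had none. In the whole window of 425.9 kb 9 peaks were found, of which 6 had their center in Ctcfl or within 1 kb of it. With those 6 included, the window held 2.11 peaks per 100 kb, beside 0.280 over all chromosomes of the list.

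Of the ring genes, Smc3 (chr19:53674886-53720323, plus strand) had 1 peak, at -449 bp from a TSS, from 53674265 to 53674609 of chromosome 19. The peak was narrow, with 345 bp (rank 5813), and held 2 matches at up to 1 mismatch. The exact match lay 32 bp from its center. Smc1a (chrX:148450971-148497237, plus strand) and Rad21 (chr15:51794151-51823306, minus strand) had no peak within 100 kb. The nearest was 328 kb away for Smc1a and 162 kb for Rad21. Among the 3 ring genes a peak was therefore recorded for Smc3 alone.

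Of the genes for ring-bound subunits, Stag1 (chr9:100498217-100858964, plus strand) has 7 coding TSSs. Its promoter peak, from 100543704 to 100544201 of chromosome 9, did not lie at the first of these, but 45735 bp downstream of it. There, 4 TSSs lie close together, and the center of the peak was at 85, -42, -80 and -237 bp from them. The peak was 498 bp wide (rank 2895) with a GC content of 72.5%. A second peak of Stag1, from 100810851 to 100811066, lay in an intron and was the narrowest of the 19, with 216 bp (rank 7351). Its best match had 3 mismatches. The third, at -27599 bp from the first TSS, was located 886 bp downstream of a TSS of Tmem22. Stag2 (chrX:39502494-39630362, plus strand) had 1 peak, from 39502158 to 39502542 of the X chromosome, with its center at -144 bp. It was 385 bp wide (rank 5042), with 70.6% GC and 2 matches at up to 1 mismatch. Peaks were sparse on the X chromosome, which held 1.57% of the peaks and 6.28% of the sequence. Of the 932 coding genes on X 5.26% had a promoter peak, and Stag2 was among these 49. No peak within 160 kb of a TSS was found for 67.7% of X genes, Smc1a included, and for 30.3% of all genes.

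The loader gene Nipbl (chr15:8241225-8394463, minus strand) had no peak nearby. The nearest lay 345 kb away, beyond the far end of the gene, and 16.6% of all genes had their nearest peak as far or farther. Of the PDS5 genes, Pds5b (chr5:151476314-151613265, plus strand) had a promoter peak from 151475889 to 151476450 of chromosome 5, with its center at -145 bp, 562 bp wide (rank 1965). Peaks at -7981 and -24555 bp lay at N4bp2l2, the former at -146 bp from a TSS of that gene and the latter within it. The promoter peak of N4bp2l2 had a best match with 1 mismatch (A6T), and the peak within N4bp2l2 had 3. Pds5a (chr5:66006499-66089095, minus strand) had no promoter peak. Its only peak within 40 kb lay at -8610 bp, from 66097520 to 66097891 (372 bp, rank 5311), outside annotated coding genes, with a best match of 3 mismatches. Hence the paralogs Stag1 and Stag2 both had a promoter peak, whereas of Pds5a and Pds5b it was found for Pds5b.

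The promoters of the members were next compared regardless of peaks, over -2 kb to +1 kb of the first coding TSS. This interval held a match with no more than 1 mismatch in 26.8% of all genes, in 59.4% of genes with a promoter peak, and in 22.6% of genes without one. Ctcfl had 4 matches, Ctcf and Stag2 had 3, Smc3 had 2, and Pds5b had 1. Stag1 had none around its first TSS, and its promoter peak lies at later TSSs. Among the genes without a promoter peak, Rad21, Nipbl and Pds5a each had 1 match, with 1 mismatch, and Smc1a had none. Thus a match at this level occurred in promoters of members with and without a peak. The ratio of observed to expected CpG within 250 bp of the TSS was 1.10 for Pds5a, 0.97 for Smc1a, 0.87 for Rad21 and 0.70 for Nipbl, all above the median of 0.59 over all genes. With a promoter peak, the ratio was 1.22 for Stag2, 1.03 for Ctcf, 0.99 for Pds5b and 0.92 for Smc3. It was lower for Ctcfl, at 0.38, and for the first TSS of Stag1, at 0.37. The Stag1 promoter peak lies far from that TSS, and its own bases had a ratio of 0.97. Of the 11095 genes with a ratio of at least 0.6, 17.3% had a promoter peak, and of the 8 members above this value 4 had one. Stag1, placed by its first TSS, is not among the 8. At least 90% of windows around the TSS were unique for each of the 10 genes (91.4 to 100%), those without a peak included.

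In a wider list of 45 genes of cohesin, condensin, SMC5/6 and CTCF partners, 7 had a promoter peak (15.6%, beside 11.2% of all genes). Of the 5 meiotic cohesin genes this was Rec8, the kleisin that takes the place of RAD21 in meiosis, with a peak centered 86 bp downstream of a TSS. Of the 12 genes for loading, release and regulation it was Esco1, which acetylates SMC3, at -9 bp. The condensin genes Ncapd2 (-30 bp) and Ncapg2 (-1169 bp) were found among 8. Of the 7 SMC5/6 and SMC-like genes it was Nsmce4a, a subunit of the SMC5/6 complex, at 208 bp. That TSS lies within the gene and not at its 5' end. Of the 13 CTCF partner genes, Patz1 and Zbtb33 (Kaiso), which both encode zinc finger proteins, had a peak at -128 and -110 bp. The best matches were exact at Esco1 and Patz1, had 1 mismatch at Nsmce4a and Zbtb33, 2 at Ncapd2, and 3 at Rec8 and Ncapg2. A peak within 40 kb was found for 25 of the 45 genes (55.6%, beside 41.7% of all genes).

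**Figure D4:**
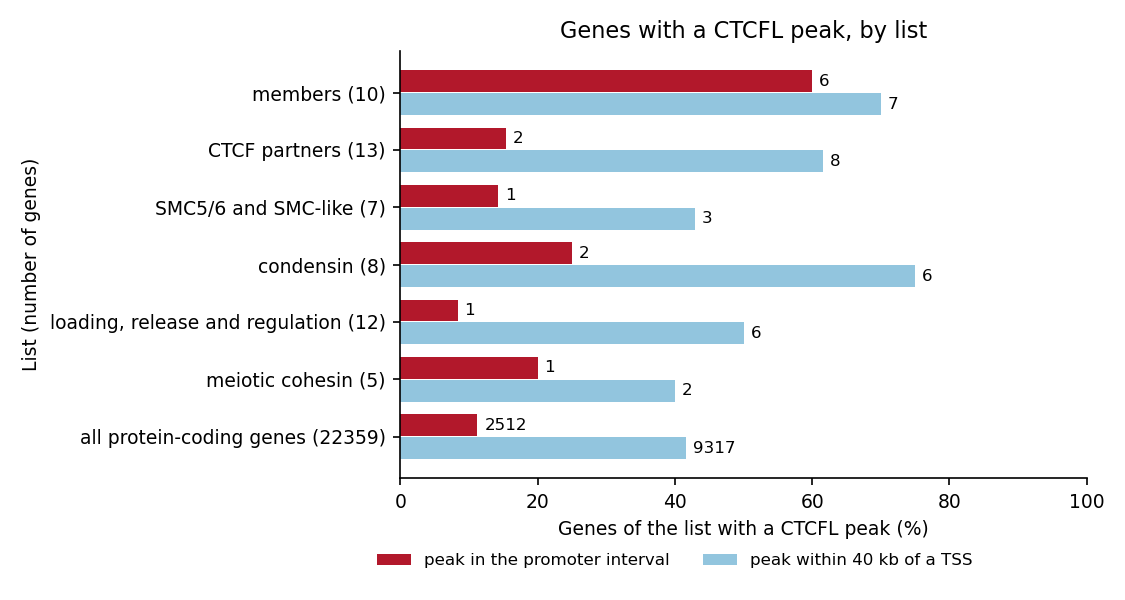
Bars give the share of genes in each list (%) with a CTCFL peak in the promoter interval (red) or within 40 kb of a TSS (blue), and the number at each bar counts the genes. The first list (members) holds the 10 genes described here, with 6 and 7 genes, and the last all 22359 protein-coding genes, with 2512 and 9317.

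Over the 19 recorded peaks, the median width was 525 bp, compared with 454 bp for all peaks, and 13 were wider than the median peak. The member promoter peaks had a median width of 512.5 bp, near the 515 bp of all promoter peaks. A match at up to 1 mismatch was found in 11 of 19, or in 14 of 19 at up to 2 mismatches, beside 43.9% and 76.7% of all peaks. All windows were unique in 16 of the 19, beside 6099 of all 7436 peaks.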

How the data were processed

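The authors sequenced 36-bp ChIP reads and mapped these to the mouse genome with ELAND. For published ES cell data that they downloaded, the methods describe alignment to mm9 with BOWTIE, removal of ambiguous and duplicate reads, and MACS peaks (fdr below 0.05). Which aligner and threshold made the deposited list is not given in the sources used here. The deposited values are other than counts, namely peak starts and ends on mm9 (read as zero-based), without depth. Here, peak centers were compared with GENCODE vM1 genes and the NCBIM37 (mm9) genome with Python 3.11.15, numpy 2.4.6, scipy 1.17.1 and pysam 0.24.0. Coding transcripts gave the TSSs. Fixed consensus bases were read from the motif logo of the study. Windows of 36 bases were searched in the whole genome. On simulated data the calls for 200 planted positions near a TSS, 511 exons and 600 matches were all as planted. Some of the positions and exons were planted outside the limits. For positions and exons the truth was set by the same rule as the analysis, so these checks cover the code only. The number of unmapped columns was 0.

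The members, gene lists and tests were chosen with earlier results of these data known. All members, all genes within 200 kb of Ctcfl, and other listed genes with a promoter peak were named. Sequences were shown for promoter peaks and for the peak with the fewest mismatches. The exons were added after their values were seen. The CTCF and non-induced libraries and the protein similarity of CTCF and CTCFL were not analysed here. Other intervals, TSS sets, mappable peaks, merging of neighbors and mismatch limits were tried as alternatives.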

Additional observations from a re-analysis of the deposited data

How the results depend on the processing

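No paired analysis was possible because the groups had a single library each. Of 38 alternatives over 8 results, 34 kept the value within 1.5 times (widths within 1 SD of the 19 widths), and 4 did not. When any base of a peak could lie in the gene, 5 members had a gene body peak instead of 3, since the promoter peaks of Stag2 and Pds5b reach into the gene. With no mismatch allowed 4 recorded peaks held a consensus match instead of 11, beside 12.8% of all 7436 peaks. When the search was limited to the central 200 bp, 6 recorded peaks held a match at up to 1 mismatch. For this setting no share over all peaks is given here. With the TSSs of all transcripts, non-coding genes included, 1 gene within 200 kb of Ctcfl had a promoter peak, which was 1300015D01Rik, instead of 0. The number of members with a promoter peak was 6, but 5 with the first TSS of each gene alone, where Stag1 was lost, and 5 without the peaks that hold a whole Ctcfl exon, an alternative chosen after seeing the data. This last left 14 recorded peaks, of which 10 held a match. The list holds no score, so a stricter peak threshold could not be tried. Without read numbers, a gene with no peak may hold binding below the threshold of the list, and widths are no measure of occupancy.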
